A study of Mus musculus with 79 samples.

Results

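Immediate early genes are switched on within minutes when a neuron is stimulated, without the need for newly made protein. The 10 genes described here were Fos, Fosb, Junb, Egr1, Egr2, Egr3, Arc, Npas4, Ier2 and Dusp1. They were taken by name from an expression table of 25965 genes, and all 10 were found and passed the filter on low values. Expression was read in RNA-seq of the adult mouse hypothalamus, and H3K4me3, H3K27me3 and H3K36me3 were read in ChIP-seq of the same tissue. The animals were on a C57BL/6Babr background and about 14 weeks old, with 1 animal per library. The labels do not give the sex of a library. The legends of the study call the RNA-seq animals female in one place and the hypothalamus shown for RNA-seq and ChIP-seq male in another. Wild-type mice (+/+) had both alleles of Dnmt3a, which encodes a de novo DNA methyltransferase. In Δ/D329A mice the maternal Dnmt3a allele lacked exon 18 after recombination by a Cre driven by the oocyte promoter of Zp3. Their paternal allele carried D329A, a change of aspartic acid to alanine in the PWWP domain that reads methylated H3K36. RNA-seq had 5 +/+ and 4 Δ/D329A animals, and each mark and the input had 3 animals of each genotype. The comparison asks how Δ/D329A animals differ from +/+ in these genes and in chromatin marks at their promoters. No RNA-seq or ChIP-seq library carries the deletion or D329A alone. The effects of the lost maternal allele and of D329A therefore cannot be told apart here.

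In neurons, calcium entry and the MAP kinase cascade phosphorylate CREB and the partners of SRF, which sit on these promoters and start transcription at once. Most members encode transcription factors. Fos, Fosb and Junb form the AP-1 dimers, Egr1, Egr2 and Egr3 are zinc finger factors, and Npas4 is a factor induced chiefly by calcium in neurons. Arc acts at the synapse on glutamate receptor trafficking, Dusp1 is a phosphatase that switches MAP kinases off, and Ier2 is a small nuclear protein. Transcripts of this kind are short-lived and fall back quickly, so their level in a tissue reflects the recent past of the animal.

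The RefSeq promoter windows used here (GRCm38.p6, 250 bases before to 50 after each start) held 6 members, Fos, Fosb, Junb, Egr2, Npas4 and Dusp1. Egr1, Egr3, Arc and Ier2 had no window among those used, which does not mean that RefSeq lacks these genes. Their promoters were not searched. CREB binds TGACGTCA, the cyclic AMP response element, and TGACG is the core of this site. TGACG was present on either strand in at least 1 window of each of the 6 genes, against 20.8% of all 32851 windows. The complete TGACGTCA, which includes the core, was found for Dusp1 alone, against 1.79% of all windows. The CArG box, the site of SRF, was found for Egr2 alone, against 1.63% of all windows. Bases farther than 250 before a start were not searched, so a box there would be missed in any gene. Egr2 has 5 windows and so more chances of a match, and the box was absent from the one near the start used by the table and present in the others, whose starts lie 2091 to 2455 bp downstream. The AP-1 letters TGANTCA were in none of the windows of these 6 genes and in 7.81% of all windows. A match describes letters in the window and not binding. The stretches are shown because CREB and SRF are known to bind letters of this kind. Each runs for 50 bases on the strand of the gene, and capitals mark the match.
Fos, chr12:85473802-85473851, + strand, core first base at -66 from the start: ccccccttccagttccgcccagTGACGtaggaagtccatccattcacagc
Fosb, chr7:19310078-19310127, - strand, core at -60: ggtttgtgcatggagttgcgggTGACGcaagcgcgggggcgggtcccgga
Junb, chr8:84978827-84978876, - strand, core at -106: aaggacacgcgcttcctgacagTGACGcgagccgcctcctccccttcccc
Npas4, chr19:4990113-4990162, - strand, core at -169: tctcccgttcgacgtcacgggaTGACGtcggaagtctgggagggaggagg
Dusp1, chr17:26508587-26508636, - strand, complete site at -143: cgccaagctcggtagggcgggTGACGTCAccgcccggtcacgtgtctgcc
Egr2, chr10:67537777-67537826, + strand, CArG box at -72 from the RefSeq start at 67537869: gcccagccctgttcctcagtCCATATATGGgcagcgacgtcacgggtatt

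Gene positions are those of the deposited table, on GRCm38. The RNA-seq values are log2 RPKM, read numbers scaled to exon length and to the size of the library. Between 5618125 and 9977003 reads fell on genes in the +/+ libraries, and between 3874213 and 6598977 in those of Δ/D329A. They made up 33.3% to 54.3% of the reads used for scaling in +/+ and 36.8% to 45.1% in Δ/D329A. The median of all tested genes differed between libraries, from 0.81 to 1.49 log2 RPKM in +/+ and from 0.91 to 1.22 in Δ/D329A. Mitochondrial transcripts made up 1.75% to 3.79% of reads on genes in +/+ and 0.949% to 1.18% in Δ/D329A. All 12 hypothalamic neuropeptide transcripts looked at were present, with a summed level of 427 to 899 RPKM in +/+ and 488 to 705 in Δ/D329A. The sum hides single genes, of which 6 were higher and 6 lower in Δ/D329A. Cartpt, named after its value was seen, had a log2 difference of -0.81. Its adjusted p was 0.355 by limma, 0.00246 by edgeR and 1.96e-07 by DESeq2. Dnmt3a itself stood at 2.11, 1.85, 1.85, 1.71 and 2.04 log2 RPKM in +/+ and at 1.66, 1.51, 1.65 and 1.72 in Δ/D329A. The 5 +/+ animals had 1.91 ± 0.16 log2 RPKM (SD) and the 4 Δ/D329A animals 1.63 ± 0.09 (SD), with a limma adjusted p of 0.355. Its transcript level is no check of the point mutation. In bulk tissue, fewer cells that express a gene and less RNA per cell cannot be told apart.

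Per kilobase, Fos and Junb were the most abundant members and Egr2 and Egr3 the least. In +/+ the level fell from Fos (9.66 RPKM) over Junb (7.64), Egr1 (3.81), Dusp1 (3.21), Arc (3.18), Npas4 (1.02), Ier2 (0.772), Fosb (0.663) and Egr3 (0.311) to Egr2 (0.165). Within the same animal, Junb exceeded Egr1, Arc exceeded Npas4, Fosb exceeded Egr3 and Egr3 exceeded Egr2 in 5 of 5 +/+ libraries. The neighbours Dusp1 and Arc (3 of 5), Npas4 and Ier2 (3 of 5) and Ier2 and Fosb (2 of 5) did not keep their order. Egr3 and Egr2 rested on few reads, with 5 to 14 and 3 to 16 per +/+ library.

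The AP-1 genes Fos and Junb did not separate the genotypes, and Fosb did not pass the test. Fos (chr12:85473890-85477273, + strand) stood at 3.85, 3.12, 3.78, 2.49 and 2.54 log2 RPKM in +/+ replicates 1 to 5 and at 3.74, 3.20, 3.27 and 3.25 in Δ/D329A replicates 1 to 4. The Δ/D329A animals all lay inside the +/+ range. On the log2 scale they were 0.21 higher, with an SE of 0.30 and a limma adjusted p of 0.879. Leaving out 1 library moved this from 0.04 (without +/+ replicate 4) to 0.38 (without +/+ replicate 1).
Junb (chr8:84976909-84978748, - strand), a dimer partner of Fos, stood at 3.91, 2.69, 2.83, 2.41 and 2.10 in +/+ and at 3.39, 2.68, 2.96 and 3.02 in Δ/D329A. Its 4 Δ/D329A values likewise lay inside the +/+ range, 0.22 higher on the log2 scale with an SE of 0.32 (adjusted p by limma 0.877). It was 0.05 without +/+ replicate 5 and 0.50 without +/+ replicate 1.
Fosb (chr7:19302721-19310045, - strand), whose truncated form accumulates with repeated stimulation, was at -0.82, -0.63, 0.16, -1.11 and -0.94 in +/+. It was at 0.39, -0.13, 0.47 and 0.01 in Δ/D329A, and +/+ replicate 3 was the one wild-type animal above the lowest mutant. The difference of 0.85 (SE 0.27) had an unadjusted limma p of 0.00911 and an adjusted one of 0.355. DESeq2 gave 0.81 (adjusted p = 0.068) and edgeR 0.81 (adjusted p = 0.092). Fosb isoforms are merged in these values.

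Egr1 (chr18:34859823-34864984, + strand) was the one member whose genotypes did not overlap. It stood at 1.89, 1.90, 2.22, 1.503 and 2.05 log2 RPKM in +/+ and at 2.86, 2.51, 2.504 and 2.55 in Δ/D329A, from 197 to 476 reads per library. All 4 Δ/D329A animals lay above the highest +/+ animal. Δ/D329A was 0.69 higher (SE 0.16), or 1.62-fold, with a limma adjusted p of 0.234. Of all genes tested, 1.78% were higher and 1.23% lower without overlap, against 1 and 0 of the 10 members. A two-sided exact permutation test on the means gave p = 0.00794 for Egr1, unadjusted, the smallest possible with 5 animals against 4. Groups without overlap are the most extreme split in their direction, so this p adds little to the lack of overlap. Egr1 was called by DESeq2 (log2 difference 0.66, adjusted p = 0.00724), which called 0.826% of its genes as higher. By edgeR it was not (0.66, adjusted p = 0.0428), at the same threshold of 0.01. Over the alternatives run, the log2 difference of Egr1 lay between 0.57 and 0.77 and its adjusted p between 0.00724 and 0.461.

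Egr3 (chr14:70077445-70080157, + strand), a factor downstream of activity in neurons that controls Arc among others, had the largest difference of the members. It stood at -0.90, -1.66, -1.92, -2.13 and -2.26 in +/+ and at 0.43, -0.73, -0.43 and -1.17 in Δ/D329A. These values rested on 14, 7, 5, 5 and 5 reads in +/+ and on 28, 9, 14 and 7 reads in Δ/D329A. Only +/+ replicate 1 reached the Δ/D329A range, above replicate 4. The difference of 1.301 (SE 0.36) had an unadjusted limma p of 0.00423 and an adjusted one of 0.333. DESeq2 gave 1.36 with an adjusted p of 0.105, and edgeR without its filter gave 1.34 with 0.0929.
Egr2 (chr10:67535475-67542188, + strand), best known from myelinating cells and hindbrain patterning, was close to the limit of detection. It stood at -1.97, -2.56, -2.51, -2.55 and -4.25 in +/+ and at -1.73, -2.35, -2.69 and -3.24 in Δ/D329A, 0.26 higher on average with an SE of 0.45 (adjusted p by limma 0.905). The groups overlapped throughout.

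Arc (chr15:74669083-74672570, - strand), the synaptic member, stood at 2.31, 1.72, 1.92, 0.99 and 0.90 log2 RPKM in +/+ and at 2.71, 1.92, 2.004 and 2.23 in Δ/D329A. The lower end of the +/+ group was set by replicates 4 and 5, and all 4 Δ/D329A values lay above the +/+ median. Δ/D329A was 0.65 higher (SE 0.30), and limma gave an adjusted p of 0.355. DESeq2 gave 0.62 with an adjusted p of 0.0374, above the threshold of 0.01. Npas4 (chr19:4984355-4989971, - strand) stood at 0.22, -0.63, 0.04, 0.09 and 0.26 in +/+ and at 0.46, -0.35, 0.28 and -0.10 in Δ/D329A, 0.08 higher with an SE of 0.24 (adjusted p by limma 0.953). The genotypes overlapped throughout for this gene.
Dusp1 (chr17:26505590-26508519, - strand) stood at 2.08, 1.33, 2.05, 1.46 and 1.29 in +/+ and at 1.99, 1.83, 1.55 and 1.82 in Δ/D329A, 0.16 higher with an SE of 0.21 (adjusted p by limma 0.858). It was 0.07 without +/+ replicate 5 and 0.27 without +/+ replicate 1. Ier2 (chr8:84661331-84662852, - strand) stood at 0.36, -0.05, -0.26, -1.24 and -1.51 in +/+ and at -0.48, -0.83, 0.05 and -0.76 in Δ/D329A, 0.04 higher with an SE of 0.39 (adjusted p by limma 0.991). For both genes the Δ/D329A animals fell inside the +/+ range.

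**Figure D1:**
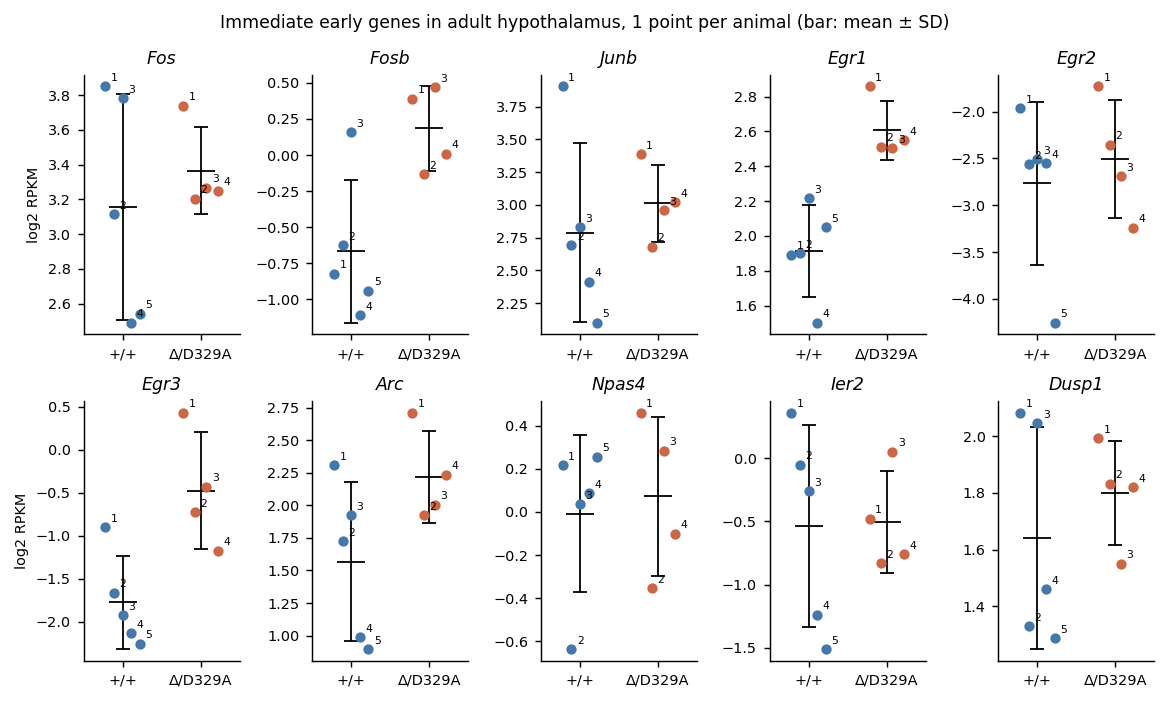
Expression of the 10 members in log2 RPKM on the vertical axis, with 5 +/+ animals in blue and 4 Δ/D329A animals in orange, numbered by replicate, and bars for the mean ± SD. Egr1 is the one gene whose groups do not overlap, and +/+ replicates 4 and 5 are low for Fos, Junb, Arc and Ier2.

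None of the 10 members (0) passed limma's adjusted threshold of 0.01, which 0.107% of the 17839 genes tested passed, 0.0841% higher and 0.0224% lower. At an unadjusted p under 0.05 there were 3 members, Fosb, Egr1 and Egr3, all higher, against 7.62% of all genes in either direction and 4.61% higher. edgeR, which called 0.554% of its genes, called 0 of the 8 members that passed its own filter, and DESeq2, which called 1.56%, called Egr1. Of the genes called, 78.9% were higher with limma, 51.9% with edgeR and 53% with DESeq2. The log2 difference was above 0 for 10 of 10 members, with a median of 0.24, while 59.6% of all genes were above 0 and their median was 0.06. The sign was not kept by every member under other scalings, since Ier2 fell below 0 with edgeR (-0.04) and DESeq2 (-0.04), and Egr2 and Ier2 with quantile normalization (-0.0033 and -0.0032). With every library centred on its median, 10 of 10 were above 0, and Egr1 (adjusted p = 0.0795) and Egr3 (adjusted p = 0.0751) were the 2 members without overlap, against 2.5% of all genes higher without overlap. Markers of thalamic neurons were summed in the same libraries. Over this list the level was 51.5 to 82.5 RPKM in +/+ and 73.3 to 97.7 in Δ/D329A, with 6 of 6 genes above 0 in log2 difference. By limma 0 of the 6 were called and 3 had an unadjusted p under 0.05. DESeq2 called Gbx2 (adjusted p = 0.00013) and Rora (adjusted p = 0.00453), named after their values were seen, and edgeR called 0. The part of these cells in the values of Egr1, Egr3, Fosb and Arc was not tested.

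**Figure D2:**
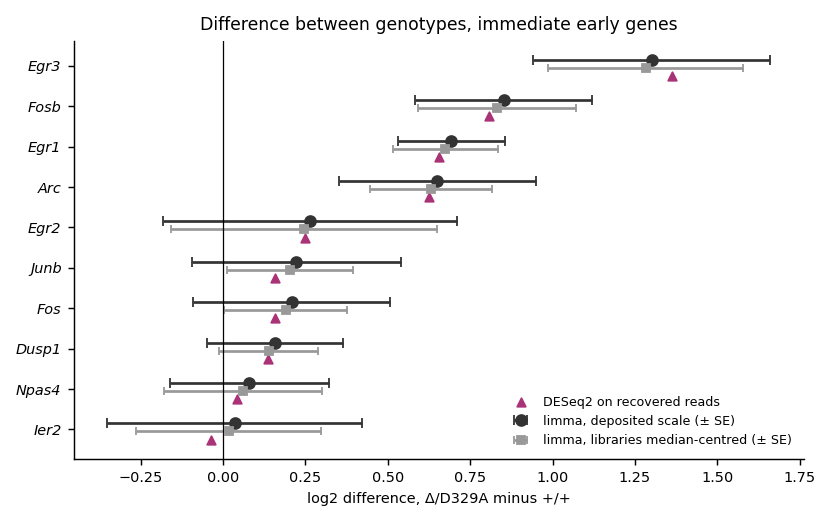
Log2 difference between Δ/D329A and +/+ for each member on the horizontal axis, by limma on the deposited scale (circles, ± SE), by limma on median-centred libraries (squares, ± SE) and by DESeq2 on recovered reads (triangles). Egr3, Fosb, Egr1 and Arc lie at 0.62 or above by each of the 3 fits, and the other members between 0 and 0.26 except Ier2 by DESeq2 (-0.04).

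Other genes of the same response were compared with a fixed list. None of 40 further rapid response genes was called by limma, and 4 had an unadjusted p under 0.05, 3 of them higher. Of all genes tested, 7.62% had such a limma p in either direction and 4.61% had it and were higher. Their log2 differences had a median of 0.05, with 22 above 0 and 18 below. The 4 with the largest differences were Ier3 (-1.27, adjusted p = 0.278), Egr4 (1.15, 0.355), Dusp5 (0.82, 0.355) and Maff (0.62, 0.355). Egr4 is a further zinc finger factor of the Egr family, Ier3 is a stress-induced survival gene, Dusp5 is a nuclear phosphatase of ERK and Maff is a small Maf factor. Ier3 was the one gene of this list without overlap between genotypes, and it was lower in Δ/D329A. Among all genes tested, 1.23% were lower and 1.78% higher without overlap. Of 26 upstream regulators (kinases of the MAP and calcium pathways, CREB, SRF and their cofactors, and MEF2 factors), 0 were called and 0 had an unadjusted p under 0.05. Their differences ran from -0.21 (Elk4, named after its value was seen) to 0.30 (Mef2c), with a median of 0.13. Cacna1c, the L-type calcium channel, Rps6ka1 and Camk2a followed at 0.29, 0.27 and 0.25. Of 10 late response genes, which follow the early factors, 0 were called by limma and 1 had an unadjusted p under 0.05. The largest differences were those of Inhba (-0.68), Nrn1 (0.53), Bdnf (-0.47) and Pcsk1 (-0.42), and 6 of the 10 were below 0. DESeq2 called Nrn1 (adjusted p = 0.00303), a neuritin that promotes neurite growth.

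Animals of one genotype differed widely in these genes. Fos, Junb and Arc had within-genotype SDs of 0.52, 0.55 and 0.51 on the log2 scale, where the median of the 11506 genes with a mean of at least 1 RPKM was 0.31. They ranked at the 92.8th, 94.8th and 92.6th percentile of those genes. Npas4 (0.36) was at the 67.1st percentile, Dusp1 (0.32) at the 52.9th and Egr1 (0.23) at the 22.4th. The highest +/+ animal had 2.57 times the Fos level of the lowest, 3.49 times for Junb and 2.65 times for Arc. In Δ/D329A the same ratios were 1.45, 1.63 and 1.73. +/+ replicates 4 and 5 were among the lowest 2 of the 9 libraries for 7 and 8 of the 10 members, and Δ/D329A replicate 1 was among the highest 2 for 7. The library median correlated with Fos at r = 0.86 and with Junb at r = 0.93 over 9 libraries, given as a description. After median centring the SDs of Fos, Junb and Arc were 0.34, 0.35 and 0.32, at the 88.5th, 89.0th and 86.3rd percentile. Npas4 (0.39), Egr1 (0.27) and Dusp1 (0.24) were then at the 92.9th, 78.0th and 69.0th, so that the low rank of Egr1 held for the deposited scale alone. +/+ replicates 4 and 5 were then among the lowest 2 for 6 members each, and Δ/D329A replicate 1 among the highest 2 for 8.

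Members were compared with Fos across the 9 libraries by exact permutation tests over all pairings, two-sided, with p adjusted over 9 pairs. Arc had the highest Pearson coefficient with Fos on the deposited scale, r = 0.88 (adjusted p = 0.0119) and Spearman rho = 0.77 (adjusted p = 0.0642). With the genotype means removed its r was 0.95. Dusp1 gave r = 0.87 (adjusted p = 0.0119) and rho = 0.88 (adjusted p = 0.0273), and Junb gave r = 0.85 (adjusted p = 0.0119) and rho = 0.85 (adjusted p = 0.0273), both in exact permutation tests. Ier2 gave r = 0.77 (adjusted p = 0.0347) and rho = 0.73 (adjusted p = 0.07) in the same exact tests. Egr2 (r = 0.67), Egr3 (0.60), Fosb (0.58), Egr1 (0.48) and Npas4 (0.17) did not pass the threshold. Without +/+ replicates 4 and 5, the 2 libraries farthest from the median of Fos, r was 0.84 for Dusp1, 0.72 for Junb, 0.58 for Arc and 0.36 for Ier2. These 7 libraries span a narrower range of Fos, and no p was computed for them. For Fosb and Egr1 r was then -0.01 and -0.06, and for Npas4 0.69. On median-centred libraries 0 of the 9 pairs passed, with r = 0.78 for Arc (adjusted p = 0.114), 0.64 for Junb, 0.58 for Dusp1 and 0.50 for Ier2 (adjusted p = 0.283 for each of these 3, exact permutation test). Leaving out +/+ replicate 5 alone also left 0 of 9 pairs.

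**Figure D3:**
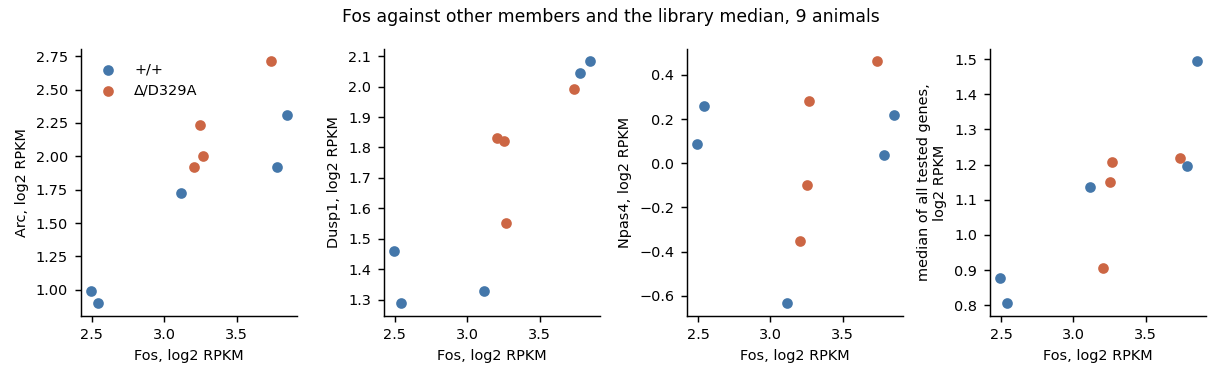
Fos on the horizontal axis against Arc, Dusp1, Npas4 and the median of all tested genes on the vertical axes, all in log2 RPKM, with 1 point per animal (+/+ blue, Δ/D329A orange). Arc and Dusp1 rise with Fos (r = 0.88 and 0.87), Npas4 does not (r = 0.17), and the library median rises with Fos as well (r = 0.86).

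Likeness to the 10 members was ranked for 11500 other genes with a mean of at least 1 RPKM, by Pearson r over 9 libraries with the mean of the members' standardised deviations from the genotype means. The 10 highest were Cited2, Eif1ad, Dis3l2, F2r, Trnp1, 2410066E13Rik, Fam101b, Jmjd4, Hps6 and Gm20695, with r from 0.975 to 0.981. None of them is in the list of other rapid response genes. The median r was 0.73 over all 11500 genes and 0.78 over 28 rapid response genes at this level. With centred libraries the median over all genes was 0.03 and that of the same 28 was 0.28. Of these, Gadd45g (r = 0.85), Plk3 (0.70) and Ier5 (0.69) stood among the highest 5% of all genes. They encode a stress sensor, a kinase of the stress response and a relative of Ier2, and were named after their values were seen. The 10 highest then included 5 of the former 10.

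H3K4me3 marks the start of active and of poised genes, and H3K27me3 is set by Polycomb at silent or poised ones. ChIP values are RPM, reads scaled to the mapped total of the library, in tiles of 2000 bp, averaged over tiles centred from 1500 bp before to 500 bp after the start given in the table. No input was subtracted. Mapped reads ranged from 12676361 to 15944966 for H3K4me3 and from 14874942 to 26178088 for H3K27me3. The +/+ mean of H3K4me3 was above the highest +/+ input value of any member promoter, 1.26 RPM, at 10 of 10 promoters. Fos had the highest level, with 29.1, 26.4 and 31.9 RPM in +/+ and 22.5, 34.0 and 29.3 in Δ/D329A. Egr1 had 19.9, 21.4 and 21.5 RPM in +/+ and 17.1, 25.1 and 23.4 in Δ/D329A. For Egr1 the Δ/D329A animals lay on either side of the +/+ animals. For Fos, Δ/D329A replicates 1 and 2 did so and replicate 3 lay inside the +/+ range. Δ/D329A replicate 1 was lowest for both genes.
The +/+ means of the others were 19.6 RPM for Ier2, 17.5 for Junb, 16.8 for Egr3, 14.3 for Npas4, 12.5 for Dusp1, 12.2 for Fosb, 10.1 for Arc and 1.72 for Egr2. Arc had 6.59 RPM in Δ/D329A replicate 1 and 11.005 and 11.1 in the other animals, against 9.61 to 10.6 in +/+. That library had the lowest median over all promoters, 4.05 RPM against 4.87 to 5.88 RPM in the other H3K4me3 libraries.
The log2 difference between genotypes ran from -0.33 (Egr2) to 0.15 (Fosb), with 0.04 (SE 0.16) for Egr1 and -0.16 (SE 0.19) for Egr3. By limma 0 of 10 members and 0% of 25952 promoters passed the adjusted threshold of 0.05, and 3.47% of promoters had an unadjusted p under 0.05 against 0 of the members. edgeR on the tile nearest to the start called 45 promoters and 0 members. Egr2 was the one member without overlap, lower in Δ/D329A, against 4.22% of all promoters lower and 1.83% higher without overlap. The median of all promoters was 2.30 in Δ/D329A and 2.51 in +/+ on the log2 scale. With libraries centred on it, the differences of Fos, Egr3, Arc, Npas4 and Dusp1 were above 0 (0.05 to 0.19), without a call.

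**Figure D4:**
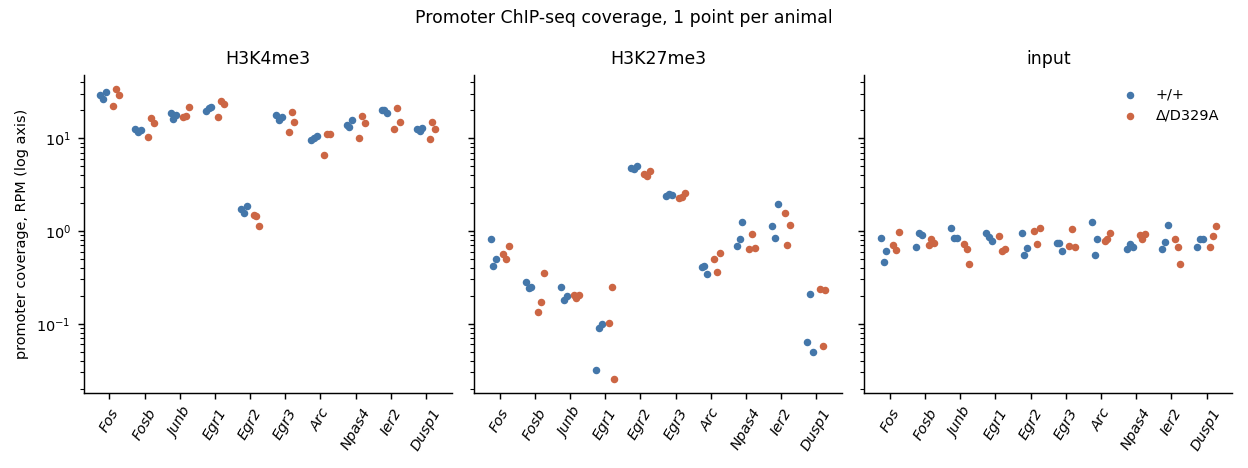
Promoter coverage in RPM on a log axis for H3K4me3, H3K27me3 and input at the 10 members, with 3 +/+ animals in blue and 3 Δ/D329A animals in orange. H3K4me3 is above input at all 10, and H3K27me3 is above the input values at Egr2 and Egr3 in every animal.

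H3K27me3 at the promoter was above the highest +/+ input value, 1.26 RPM, for 3 members, Egr2, Egr3 and Ier2. At the Egr2 promoter it was 4.75, 4.71 and 5.08 RPM in +/+ and 4.07, 3.92 and 4.44 in Δ/D329A, where +/+ input had a mean of 0.719. The Δ/D329A animals all lay below the +/+ animals. Their log2 difference of -0.22 (SE 0.09) had a limma adjusted p of 0.561, and 7.31% of all promoters were lower and 6.3% higher without overlap. Egr3 had 2.39, 2.52 and 2.45 RPM in +/+ and 2.29, 2.31 and 2.59 in Δ/D329A, a log2 difference of -0.04 (SE 0.09), and the groups overlapped. In +/+ these promoters ranked at the 98.8th and 93.7th percentile of the genes tested for expression. Ier2 was at 1.31 ± 0.58 RPM (SD, n = 3) for +/+ and 1.15 ± 0.44 (SD, n = 3) for Δ/D329A, and its groups overlapped. The other 7 had +/+ means of 0.0736 (Egr1) to 0.922 RPM (Npas4, where input was 0.678). By limma 0 of 10 members and 0% of 25952 promoters were called, and 8.9% of promoters had an unadjusted p under 0.05 against 0 of the members.

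Along the genes the marks changed with distance from the start. At Egr2 the highest H3K4me3 tile was centred 1.53 kb after the table's start, at 19.2 ± 1.34 RPM (SD, n = 3) for +/+ and 16.4 ± 3.37 (SD, n = 3) for Δ/D329A, outside the promoter window. The other RefSeq starts of Egr2 and the CArG box shown above lie on that side. H3K27me3 dipped there to 1.21 RPM in +/+ and 1.59 in Δ/D329A, and rose again beyond it. At 4525.5 bp it reached 4.82 ± 0.25 RPM (SD, n = 3) for +/+ and 3.06 ± 0.62 (SD, n = 3) for Δ/D329A.
At Fosb H3K27me3 was 0.153 RPM in +/+ in the tile at the start, and 4044.5 bp after it the value was 4.29 ± 0.63 RPM (SD, n = 3) for +/+ and 2.41 ± 0.60 (SD, n = 3) for Δ/D329A. At Npas4 it reached 2.31 ± 0.13 RPM (SD, n = 3) for +/+ and 1.56 ± 0.16 (SD, n = 3) for Δ/D329A at 4970.5 bp. At Egr3 it was broad, with 4.40 ± 0.67 RPM (SD, n = 3) for +/+ and 2.93 ± 0.82 (SD, n = 3) for Δ/D329A at 2555.5 bp. These tiles were picked by eye after the profiles were seen, and no test was run on them.

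**Figure D5:**
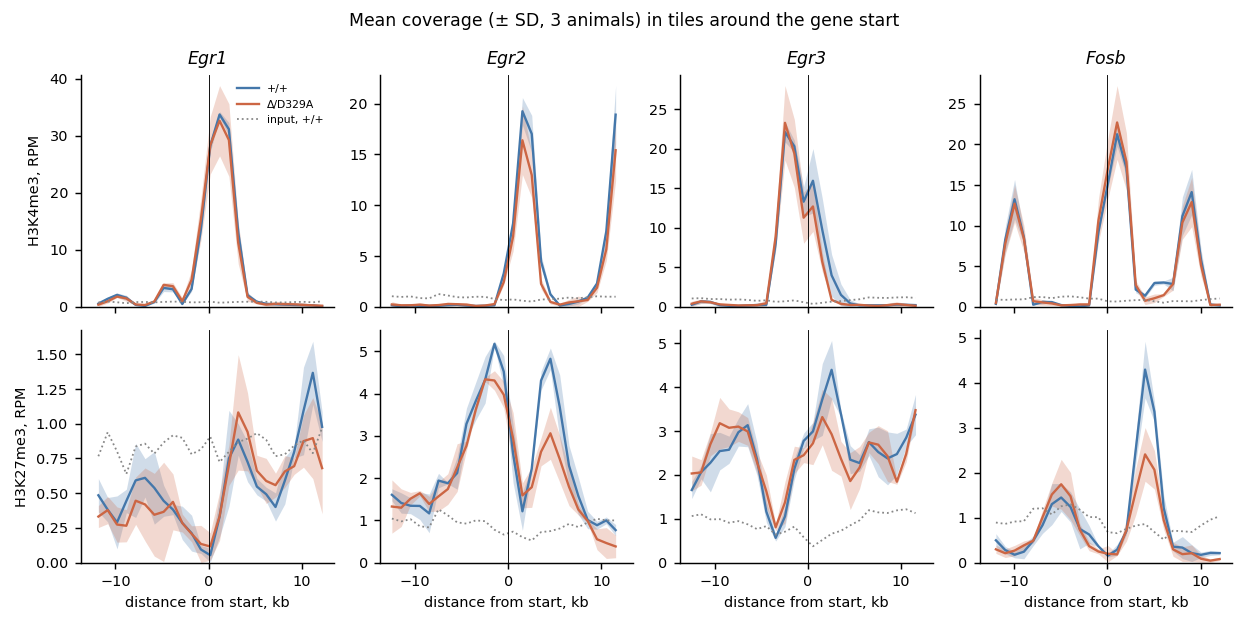
Mean coverage in RPM (line) ± SD over 3 animals (band) for H3K4me3 above and H3K27me3 below, in tiles up to 12 kb on either side of the start of Egr1, Egr2, Egr3 and Fosb, with +/+ in blue, Δ/D329A in orange and +/+ input dotted. The +/+ mean of H3K27me3 is above that of Δ/D329A at 4525.5 bp for Egr2, 2555.5 bp for Egr3 and 4044.5 bp for Fosb, but not at the dip 1.53 kb after the Egr2 start (1.21 against 1.59 RPM), while H3K27me3 at the start of Egr1 stays below input.

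The same mark averaged from 500 bp after the start to the gene end, a window added after the data were seen, gave lower Δ/D329A values without overlap for 3 members. Fosb had 1.65, 1.79 and 2.004 RPM in +/+ and 1.12, 1.495 and 0.892 in Δ/D329A, a log2 difference of -0.62 (SE 0.18). Egr2 had 2.71, 3.01 and 3.33 RPM in +/+ and 2.12, 2.20 and 2.63 in Δ/D329A, a log2 difference of -0.37 (SE 0.12). Npas4 had 1.26, 1.417 and 1.18 RPM in +/+ and 0.928, 0.909 and 0.934 in Δ/D329A, a log2 difference of -0.43 (SE 0.09). In each of the 3 genes every mutant animal lay below every wild-type animal, while 14.7% of all 23654 gene bodies were lower and 4.95% higher without overlap. None was called, with limma adjusted p of 0.354 for Fosb and Egr2 and 0.343 for Npas4. Egr3 had 3.19, 4.30 and 3.62 RPM in +/+ and 2.51, 3.21 and 3.25 in Δ/D329A, with an overlap. Ier2 had 2.33 ± 0.71 RPM (SD, n = 3) for +/+ and 2.32 ± 0.91 (SD, n = 3) for Δ/D329A. In +/+ the bodies of Egr3, Egr2, Ier2, Fosb and Npas4 ranked at the 98.8th, 98.3rd, 97.3rd, 95.4th and 90.2nd percentile of the tested genes.

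H3K36me3, deposited along transcribed genes, varied between members. In +/+ Npas4, Dusp1 and Fos ranked at the 65.2nd, 55.7th and 45.9th percentile of the tested genes, and Egr3 at the 1.92nd. Npas4 had 1.49 ± 0.12 RPM (SD, n = 3) for +/+ and 1.61 ± 0.13 (SD, n = 3) for Δ/D329A, Dusp1 had 1.27 ± 0.23 and 1.36 ± 0.50, and Fos had 1.05 ± 0.07 and 0.996 ± 0.20. The other 7 had +/+ means from 0.168 (Egr3) to 0.88 RPM (Arc), and their input means over the same window were 0.514 to 0.821 RPM. By limma 0 of 10 members and 0% of 23654 gene bodies were called, and 16.1% of gene bodies had an unadjusted p under 0.05 against 1 of the members, Fosb (log2 difference -0.38, adjusted p = 0.285). The groups overlapped for all 10, where 7.14% of gene bodies were higher and 14.9% lower without overlap.

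H3K4me3 and expression were compared over the 10 members in +/+ as a description. Spearman rho between promoter H3K4me3 and log2 RPKM was 0.62 over 10 genes, which share libraries and are not independent. In this window Fos headed both orders and Egr2 ended both, while Ier2 combined the third highest H3K4me3 (19.6 RPM) with a low transcript level (0.772 RPKM). Egr3 had H3K4me3 like that of Junb (16.8 and 17.5 RPM) at a much lower transcript level (0.311 and 7.64 RPKM), and it also carried H3K27me3. In +/+ the highest H3K4me3 tile was centred at -2.15 kb from the start for Ier2 and at -2.44 kb for Egr3. Both lie upstream of the promoter window, and whether that signal belongs to these genes was not tested. By the highest tile within 4 kb of the start the order was another, with 44.0 RPM for Dusp1, 35.8 for Ier2, 33.8 for Egr1, 32.2 for Junb and 31.1 for Fos, and with 19.2 for Egr2.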

How the data were processed

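RNA-seq reads were trimmed, mapped to GRCm38 with HISAT2 and merged over the exons of each gene in SeqMonk by the authors, who deposited log2 RPKM. Genes that got no read carry the value of 0.9 reads. One further Δ/D329A library was left out by the authors. The deposited ChIP-seq signal is reads per tile of 2000 bp, every 1000 bp, corrected by the authors for total mapped reads. Trim Galore 0.4.3 and HISAT2 2.0.5 are named in the submitters' processing notes. The authors describe a strand-specific library kit in one legend. How strand was used in counting is not given in the sources used here, and no member overlaps another gene of the table.

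Whole reads were recovered from both tables (within 0.02 reads for 25962 of 25965 genes, within 0.01 for 100% of tiles). Expression was compared with limma 3.58.1 (R 4.3.3, trend) over all genes that reached 0.1 RPKM in 4 or more libraries, without the 13 mitochondrial genes, at an adjusted p (Benjamini-Hochberg) under 0.01. edgeR 4.0.16 and DESeq2 1.42.0 were run on recovered reads. Tested on simulated data, limma missed moderate changes that edgeR and DESeq2 recovered. There, changes were planted only in well-covered genes, and every gene had the same dispersion. The simulation therefore cannot rank the fits for these members, which vary more or rest on few reads in part. Marks were compared with limma on log2(RPM + 0.1), at an adjusted p under 0.05. All tests are two-sided. Replicates are separate animals. Animals with the same replicate number did not deviate together in expression (r from -0.05 to 0.14) or H3K4me3 (-0.26 to 0.23). For H3K27me3 (0.013 to 0.078) and H3K36me3 (0.024 to 0.040) r was weak. It was still above every r between different numbers, at most 0.0071 and -0.0052. The main fits did not pair animals. With the number as a block, limma called 0 promoters for H3K27me3 and 0 gene bodies for H3K36me3. The members, gene lists and tests were chosen with earlier results of these data known. Beyond the 10 members and Dnmt3a, genes named were the 4 with the largest difference of 3 lists and the 10 most like the members. Elk4, Gadd45g, Plk3, Ier5, Gbx2, Rora and Cartpt fall outside this rule and were named after their values were seen. Bisulfite data were not analysed here. Scripts used Python 3.11.15, scipy 1.17.1 and matplotlib 3.10.9.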

Additional observations from a re-analysis of the deposited data

Results flagged for a closer look

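In all, 4 values lay apart from the rest of their group. Each gene was looked at in both genotypes, 20 groups in all, and the gap to the nearest animal was divided by the range of the group. Chance flags about 1 in 20 groups. Fos was 3.74 log2 RPKM in Δ/D329A replicate 1 (gap 0.882 of the range) and Egr1 was 2.86 in the same animal (0.873). Egr2 was -4.25 in +/+ replicate 5 (0.74), from 3 reads. Npas4 was -0.635 in +/+ replicate 2 (0.754). Without Δ/D329A replicate 1 the log2 difference of Egr1 was 0.61 and that of Fos 0.08.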

How the results depend on the processing

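For expression, 19 genes were called, against 251 with DESeq2 (of the members, 1, Egr1), 77 with edgeR and TMM, 76 with edgeR and DESeq2's size factors, 146 with edgeR and no filter, 11 with a filter at 0.5 RPKM, 34 with library weights, 34 with median centring and 32 with quantile normalization. Leaving out each replicate gave 11 to 18. Ier2 fell below 0 with DESeq2 (-0.036), the 3 edgeR fits (-0.045, -0.042 and -0.048), library weights (-0.11), a pseudocount of 1 RPKM (-0.017) and quantile normalization (-0.0032), and Egr2 with quantile normalization (-0.0033). Without single replicates Egr2 ran from -0.11 to 0.51, Npas4 from -0.077 to 0.22 and Ier2 from -0.21 to 0.26. Replicate numbers did not pair the animals in expression. With the number as a replicate block 16 genes were called, Egr2 was -0.11 and Ier2 -0.21, as without +/+ replicate 5, which has no partner.

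For H3K4me3, 0 promoters were called, against 45 with edgeR on the nearest tile, 279 with a filter at 0.5 RPM and 28 with median centring. edgeR turned Fos (0.063), Npas4 (0.056) and Dusp1 (0.060) upwards, and centring Fos (0.16), Egr3 (0.050), Arc (0.091), Npas4 (0.16) and Dusp1 (0.19). Egr1 was -0.050 with a block for higher or lower mitochondrial coverage (+/+ 3 and Δ/D329A 2 and 3 were higher in H3K4me3 and H3K27me3) and -0.010 on the nearest tile. Without single replicates the ranges were -0.18 to 0.12 for Fos, -0.04 to 0.15 for Junb, -0.064 to 0.21 for Egr1, -0.33 to 0.021 for Egr3, -0.24 to 0.13 for Arc, -0.22 to 0.17 for Npas4 and -0.16 to 0.13 for Dusp1. For H3K27me3, 221 promoters were called with the filter, 54 with centring and 2 gene bodies with the added window, Egr3 was 0.013 with centring, and Ier2 ran from -0.41 to 0.15. For H3K36me3, counting from the start gave 2 calls and leaving out replicates 0 to 4.

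Of the 4 relations with Fos, centring left 0 and leaving out replicates 0 to 5, and Npas4 was then -0.25 and -0.0051 to 0.37. The cause of these changes was not tested. Egr2 and Egr3 rest on few reads, which limits what can be seen.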
